A study of Mus musculus with 10 samples.

Results

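The thin filament genes followed here were 10 chosen by name, 3 actins (Actc1, Acta1 and Acta2), 5 troponin subunits (Tnnt2, Tnnt1, Tnni3, Tnni1 and Tnnc1) and 2 tropomyosins (Tpm1 and Tpm2). They are 10 of the 23337 genes in the deposited table, and all of them were found and tested. Right atrial RNA was sequenced from 10 adult mice, 4 labelled control and 6 labelled Tbx5 mutant, to ask how expression changes after removal of TBX5, a T-box transcription factor of the atria. The study names the mutants Tbx5 fl/fl;R26CreERt2 and the controls R26CreERt2, on a strain given as mix, so that both groups carry a Cre recombinase that tamoxifen switches on. Both were given 0.167 mg tamoxifen a day for 3 days and were killed 1 week later. The age is labelled as 8 to 10 weeks, while the protocol gives 6 to 8 weeks, and the labels give 2 male and 2 female control mice and 3 of each sex among the mutants. The Cre is driven from the ubiquitous R26 promoter and excises exon 3 of Tbx5, so the deletion is not limited to cardiomyocytes.

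The thin filament of striated muscle is a polymer of actin along which tropomyosin runs, with a troponin complex bound at regular intervals. In the complex, troponin C binds calcium, troponin I holds the filament in its inhibited state and troponin T ties the complex to tropomyosin. Each of these proteins has isoforms from separate genes, and in the heart the isoforms made before birth or in other muscles give way to the adult cardiac ones, with skeletal α-actin in particular known to return in stressed ventricle.

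The 10 libraries held between 5703775 and 7095141 counted reads, and the 10 genes took between 1.60% and 2.01% of the reads of a control mouse and between 2.15% and 3.66% of those of a mutant mouse. Levels are given as CPM, reads relative to the TMM-normalized size of the library. Tbx5 itself was higher in the mice labelled mutant, from 205 ± 17.8 to 394 ± 83.3 CPM, log2 fold change 0.94, edgeR adjusted p = 0.000495, which goes against the labels if a gene-level count follows the deletion, and the count includes reads from exons that remain. Ryr2, the calcium release channel, which the study counts among the genes that depend on TBX5, was lower in the mice labelled mutant, from 5328 ± 564 to 1701 ± 469 CPM, log2 fold change -1.65, edgeR adjusted p = 2.99e-05, and is named after its values were seen. The RNA sequencing that the study reports was of left atria, while these libraries are of right atria. Every direction below is given by label. The ribosomal transcript Rn45s took 38.9% of the counts of mutant mouse M3 and between 0.268% and 1.49% of every other library. Mutant mouse M3, whose total includes these reads, had the 2.15% given above for the 10 genes, and the other mutants had from 3.00% to 3.66%. The control mice labelled male had Xist reads and no reads of the Y-linked Ddx3y, and those labelled female had the reverse, so the sex labels of all 4 control mice went against the data. Cardiomyocyte markers had a higher summed level than each of the other marker lists in every library. The sum of these 10 markers ran from 136110.0 to 187355 CPM in the control mice and from 74279 to 148696 CPM in the mutant mice. By group means its largest part was Ttn, named after its values were seen, at 82383 ± 20258 and 51937 ± 27050 CPM. Ttn did not pass the test (edgeR adjusted p = 0.146), so the sum does not stand for the markers in general. Past the adjusted p alone, 4 markers were lower and 4 higher. Of the 10 markers, 3 were called lower, led by the atrial light chain Myl7 (log2 fold change -2.73), and 2 higher, led by the calcium pump inhibitor Pln (0.95). Nppa, the least certain of the 3 and named after its values were seen, was not called when any control mouse or mutant mouse F1, F2, M1 or M2 was left out (edgeR adjusted p from 0.0544 to 0.0942). The part of these cell markers in the results below was not tested.

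The promoters of the 3 actins are shown because the CArG box, the site of serum response factor, is the classical control element of muscle actin genes. Each is the RefSeq window of 300 bases from 250 before to 50 after a transcription start in the build GRCm38.p6, read on the gene's strand, with any strict CArG box in capitals (chr8:123894726-123895025, reverse strand for Acta1, chr2:114052826-114053125, reverse strand for Actc1 and chr19:34255324-34255623, reverse strand for Acta2).
Acta1: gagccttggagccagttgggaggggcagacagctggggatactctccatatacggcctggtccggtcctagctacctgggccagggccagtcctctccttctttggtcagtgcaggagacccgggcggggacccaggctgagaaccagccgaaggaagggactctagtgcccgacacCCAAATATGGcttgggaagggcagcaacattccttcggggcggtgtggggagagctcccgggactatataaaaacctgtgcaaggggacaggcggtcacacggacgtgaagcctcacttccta
Actc1: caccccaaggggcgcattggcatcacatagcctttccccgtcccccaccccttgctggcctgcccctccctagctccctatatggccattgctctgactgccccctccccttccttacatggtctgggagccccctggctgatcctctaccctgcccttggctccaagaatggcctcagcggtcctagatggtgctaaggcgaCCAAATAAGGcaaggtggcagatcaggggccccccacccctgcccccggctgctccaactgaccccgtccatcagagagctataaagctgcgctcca
Acta2: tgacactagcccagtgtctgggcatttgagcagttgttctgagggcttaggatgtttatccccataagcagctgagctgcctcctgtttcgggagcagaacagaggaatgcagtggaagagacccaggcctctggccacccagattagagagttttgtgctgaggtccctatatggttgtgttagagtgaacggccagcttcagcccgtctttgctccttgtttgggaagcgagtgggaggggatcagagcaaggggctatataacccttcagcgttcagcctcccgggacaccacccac
A strict CArG box began 73 bases upstream of the start in Acta1 and 47 bases upstream in Actc1. This strict form, with only A or T between CC and GG, was absent from the Acta2 window and from the windows of the other 7 genes. Of the 32851 windows of the table, 1.63% held one. Looser forms with a C or G in the middle were not searched. The Acta2 window holds such forms, ccctatatgg and ccttgtttgg, so the search does not show that it lacks a CArG box. Looser forms also stand in the Actc1 window (among them ccctatatgg, ccttacatgg and ccaagaatgg) and in the Acta1 window (among them ccatatacgg). RefSeq starts can lie inside the gene bounds given below. The table held 12 windows for the 10 genes, a window for each gene and a second for Tnnt2 and Tnni1.

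The same windows of the troponin I pair are shown for the T-box, the site that TBX5 binds, because Tnni1 rose while Tnni3 did not pass the test (chr7:4522479-4522778, reverse strand for Tnni3 and chr1:135799171-135799470, forward strand for Tnni1). The capitals mark GGTGTGA or the shorter AGGTGT, searched on both strands.
Tnni3: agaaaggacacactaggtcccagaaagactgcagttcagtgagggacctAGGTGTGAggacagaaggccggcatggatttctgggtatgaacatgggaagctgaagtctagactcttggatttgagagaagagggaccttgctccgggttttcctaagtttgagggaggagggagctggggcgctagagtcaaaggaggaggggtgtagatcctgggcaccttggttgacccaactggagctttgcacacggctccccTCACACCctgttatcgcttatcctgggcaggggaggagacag
Tnni1: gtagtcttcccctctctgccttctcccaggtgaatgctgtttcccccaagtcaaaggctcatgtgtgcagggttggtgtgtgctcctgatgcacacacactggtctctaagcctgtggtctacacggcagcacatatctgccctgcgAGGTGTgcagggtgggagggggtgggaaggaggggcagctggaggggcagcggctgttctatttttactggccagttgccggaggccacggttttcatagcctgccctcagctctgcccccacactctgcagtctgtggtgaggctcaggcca
GGTGTGA was found in the Tnni3 window alone among the 10 genes, 200 bases upstream and again 8 bases downstream of the start, against 3.98% of all windows. AGGTGT was found in Tnni3, 201 bases upstream and overlapping the longer site, in Tnni1, 103 bases upstream, and in Tnnt1, 157 bases upstream, against 13.7% of all windows. The MCAT site of the TEAD factors, CATTCC, was found in Tnnt2, Acta1, Tpm1, Tnnc1 and Acta2 against 14.7% of all windows, and the MEF2 site was found in none of the 10 genes against 3.19%. A site of the GATA factors (AGATAA) was found in Tnnt2 against 11.2% of all windows. These matches describe the letters of the windows and are not evidence of binding.

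Of the 10 genes, 8 were higher in the mice labelled Tbx5 mutant and none was lower. To be called, a gene needed an edgeR adjusted p under 0.05, a change of more than 1.5-fold up or down and a mean normalized signal over 1 in the controls. Across the 13084 genes tested, 8.50% were called higher and 7.16% lower, and these shares also stand beside the counts of every other list in the text. Without the threshold on fold the count stayed at 8, where 16.3% of all genes passed as higher and 15.0% as lower. In the same 8 genes every mutant mouse lay above every control mouse, while 11.7% of all genes tested had groups that did not overlap in that direction and 11.0% in the other. The median log2 fold change was 1.102 over the 10 genes and -0.005 over all genes tested. The exceptions among the 10 were Tnni3 and Tpm2. Over all genes the log2 fold change correlated with transcript length (Spearman -0.33), and the medians above are not adjusted for this. With the trend on transcript length removed, the same 8 genes were called higher, but each of the 10 log2 fold changes was lower. Tnnt1 then stood at 0.85, Tnnt2 and Tnnc1 at 0.91 and Tnni3 at -0.23. In these bulk samples, more cells of a type and more RNA per cell cannot be told apart.

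**Figure D1:**
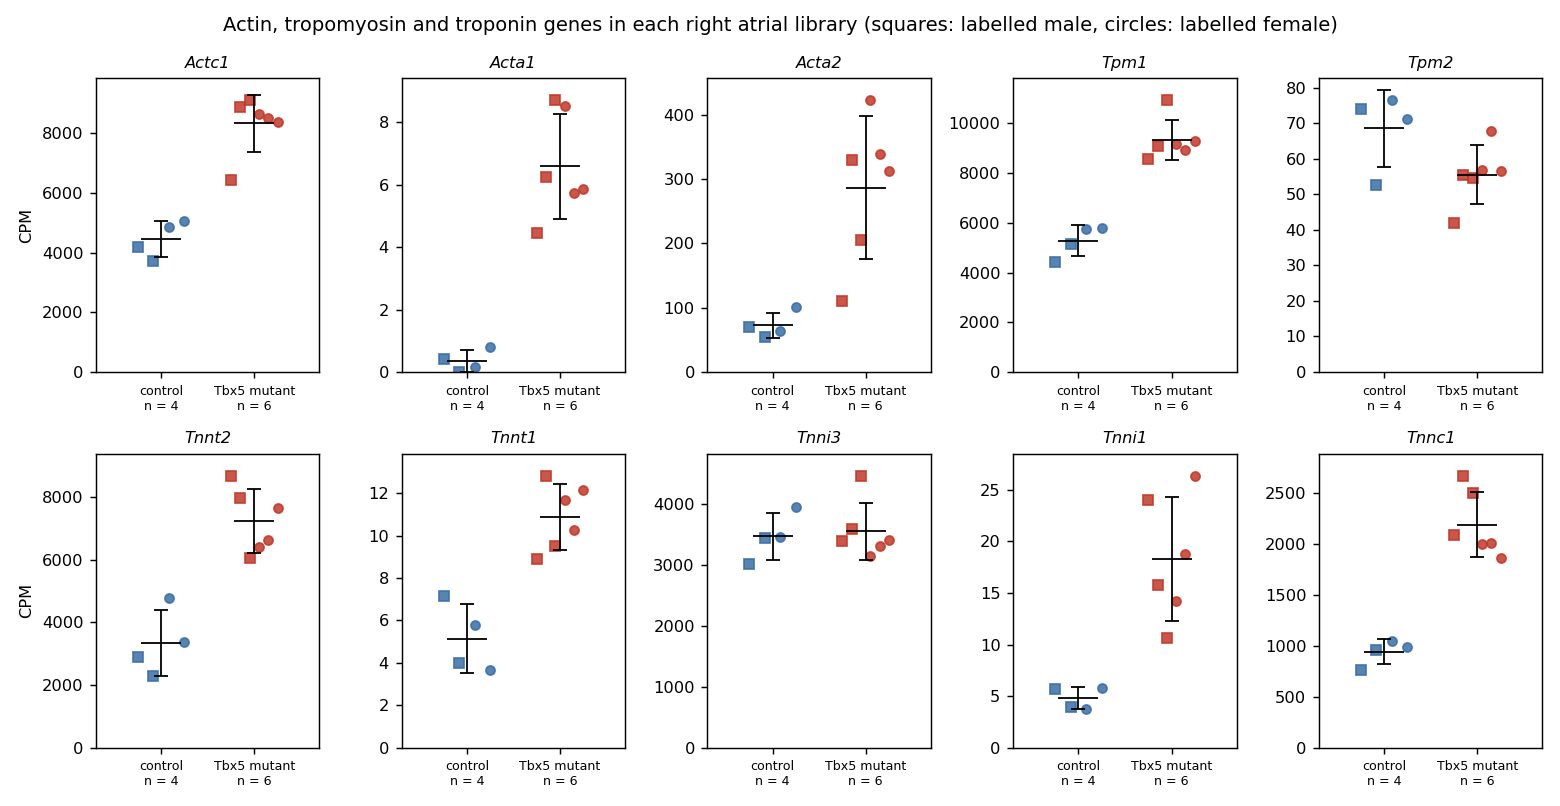
Each panel plots 1 gene in CPM from 0, with a point per mouse, squares for mice labelled male and circles for mice labelled female, and the black dash and bars giving the mean and SD of the 4 control and 6 Tbx5 mutant mice. All 6 mutant mice lie above all 4 control mice in 8 panels, while the groups overlap for Tnni3 and Tpm2.

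Actc1, the cardiac α-actin that makes up nearly all sarcomeric actin of the atrium, rose 1.87-fold. Actc1 (ENSMUSG00000068614.7) lies at chr2:114047282-114053548 on the reverse strand in the GENCODE M21 annotation of GRCm38, which is used for all positions of genes below. Its level was 4204, 3719, 4865 and 5054 CPM in M1, M2, F1 and F2 of the controls. The mutants had a lowest of 6444, a median of 8585 and a highest of 9109.8 CPM. The groups did not overlap, and mutant mouse M1 stood apart at the low end. The mean went from 4460.3 ± 614 CPM (SD, n = 4) to 8331 ± 960.2 CPM (SD, n = 6), a log2 fold change of 0.90 ± 0.15 (SE, edgeR adjusted p = 0.000533). Actc1 overlaps A530058N18Rik on the other strand, and the strand setting of the counting is not stated for these libraries, so reads of the 2 genes may not be told apart.

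Acta1, the skeletal α-actin, had 0 to 6 reads in each control mouse and 26 to 54 in each mutant mouse. Acta1 (ENSMUSG00000031972.5) lies at chr8:123891769-123894751 on the reverse strand. There were 3, 0, 1 and 6 reads of it in M1, M2, F1 and F2 of the controls, and 54, 43, 42, 26, 43 and 32 in F1, F2, F3, M1, M2 and M3 of the mutants. In CPM the controls stood at 0.429, 0, 0.157 and 0.812 in the same order, where 3 reads, the smallest count taken as detectable, equal between 0.406 and 0.496 CPM in the control libraries. The mutants had a lowest of 4.46, a median of 6.06 and a highest of 8.71 CPM. Control mice M2 and F1 were under this limit, M1 was at it, and all 6 mutant mice were above every control. Summed over mice, 10 reads in the controls stood against 240 in the mutants, a ratio of rates of 17.2 with an exact 95% interval from 9.20 to 36.3 that covers counting error only. The fitted change was a log2 fold change of 4.07 ± 0.43 (SE, edgeR adjusted p = 1.73e-05), and its size depends on the prior count, since it was 2.67 with a prior count of 5. Acta1 overlaps Gm20388 on the other strand. As the strand setting is not stated, its reads may not be told apart from those of Gm20388 or may have been counted to neither gene. Reads of near-identical actins could also be placed on it: of the 1397 windows of 50 bases in its transcript, 0 were found in Actc1 or Acta2 transcripts, 28 in Actb and 10 in Actg1. Over the 30 ordered pairs of the 10 genes with a family member, 27 shared no such window.

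Acta2, the smooth muscle α-actin, which is also made in the embryonic heart and in myofibroblasts, rose 3.95-fold. Acta2 (ENSMUSG00000035783.9) lies at chr19:34241090-34255590 on the reverse strand. Its level was 70.4, 55.1, 63.2 and 101 CPM in M1, M2, F1 and F2 of the controls. Among the mutants it had a lowest of 110.4, a median of 321 and a highest of 423 CPM. The groups did not overlap, but mutant mouse M1, the lowest of its group, was close to control mouse F2, the highest of the controls. This took the mean from 72.4 ± 20.0 CPM (SD, n = 4) to 287 ± 111 CPM (SD, n = 6), a log2 fold change of 1.98 ± 0.31 (SE, edgeR adjusted p = 0.000339).

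Among the smooth muscle and pericyte markers, 3 of the 9 tested were called higher and none lower. These were Tagln, an actin-binding protein of smooth muscle (from 15.3 ± 5.73 to 61.9 ± 23.6 CPM, log2 fold change 2.01, edgeR adjusted p = 0.000378), Des, the intermediate filament protein of muscle cells, cardiomyocytes included (log2 fold change 0.99, edgeR adjusted p = 6.95e-05), and Mylk, a myosin light chain kinase (log2 fold change 0.61, edgeR adjusted p = 0.00895), of which Des and Mylk are named after their values were seen. Without control mouse F2 or M2 or mutant mouse F2, Mylk came under the threshold on fold, at 0.55 to 0.57. Their summed level ran from 1175 to 1398 CPM in the control mice and from 1891 to 2519 CPM in the mutant mice, with Des the most abundant. Myh11, the smooth muscle myosin that defines the cell type, was 9.93 ± 1.42 and 11.5 ± 5.06 CPM, log2 fold change 0.23, edgeR adjusted p = 0.552, and did not pass the test. The other uncalled genes, named after their values were seen, went both ways. Cnn1 (log2 fold change 0.87, edgeR adjusted p = 0.0572), Lmod1 (0.42, 0.311) and Pdgfrb (0.41, 0.0137, under the threshold on fold) were higher. Smtn (-0.13, 0.435) and Rgs5 (-0.22, 0.181) were lower. Without mutant mouse M1, and likewise without mutant mouse M2, 4 of the list were called higher. The ratio of Acta2 to Myh11 reads within a library was, on the log2 scale, 3.08, 2.46, 2.42 and 3.36 in M1, M2, F1 and F2 of the controls, and in the mutant mice it had a lowest of 4.11, a median of 4.69 and a highest of 5.26. The ratio was 1.80 higher in the mutants without overlap (exact permutation p = 0.00952, adjusted p = 0.0214 over the 9 ratios). Fibroblast and myofibroblast markers also moved, with 4 of 8 called higher and none lower, led by Postn, a matrix protein of activated fibroblasts (from 155 ± 83.6 to 777 ± 214 CPM, log2 fold change 2.33, edgeR adjusted p = 0.000154), and a summed level from 3464 to 4809 CPM in the control mice and from 6361 to 9228 CPM in the mutant mice. Those not called, named after their values were seen, were Tcf21, Pdgfra and Dcn, which mark resting fibroblasts too, and Fap. Tcf21 had a log2 fold change of 0.57 (edgeR adjusted p = 0.0618). Pdgfra had -0.40 (edgeR adjusted p = 0.0152), which passes the test but not the threshold on fold. Dcn had -0.01 and Fap 0.004. The part of fibroblasts in the Acta2 result was not tested.

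Per kilobase of transcript, the 3 actins together went from 3064 ± 424 to 5801 ± 689 CPM per kilobase (SD, n = 4 and 6). Actc1 stayed the bulk of them, at 98.8% ± 0.218 of the 3 in the controls and 97.5% ± 0.815 in the mutants. The share of Acta2 in Acta2 plus Actc1 went from 1.15% ± 0.211 (SD, n = 4) to 2.38% ± 0.814 (SD, n = 6). The log2 ratio of Acta2 to Actc1 reads was -5.90, -6.07, -6.26 and -5.64 in M1, M2, F1 and F2 of the controls. In the mutants it had a lowest of -5.87, a median of -4.75 and a highest of -4.35, and 5 of the 6 lay above all controls while mutant mouse M1 lay within them. The difference was 1.00 on the log2 scale (exact permutation p = 0.0190, adjusted p = 0.0286 over the 9 ratios). The share of Acta1 in Acta1 plus Actc1 went from 0.00751% ± 0.00732 (SD, n = 4) to 0.0799% ± 0.0147 (SD, n = 6). Its log2 ratio to Actc1, with 0.5 added to each count, was -13.04, -15.46, -14.34 and -12.49 in the controls in the same order and had a lowest of -10.52, a median of -10.46 and a highest of -9.97 in the mutants. All 6 mutants lay above all 4 controls, by 3.51 on the log2 scale (exact permutation p = 0.00952, adjusted p = 0.0214 over the 9 ratios). This size depends on what is added to the counts, since it was 1.85 with 5 in place of 0.5.

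**Figure D2:**
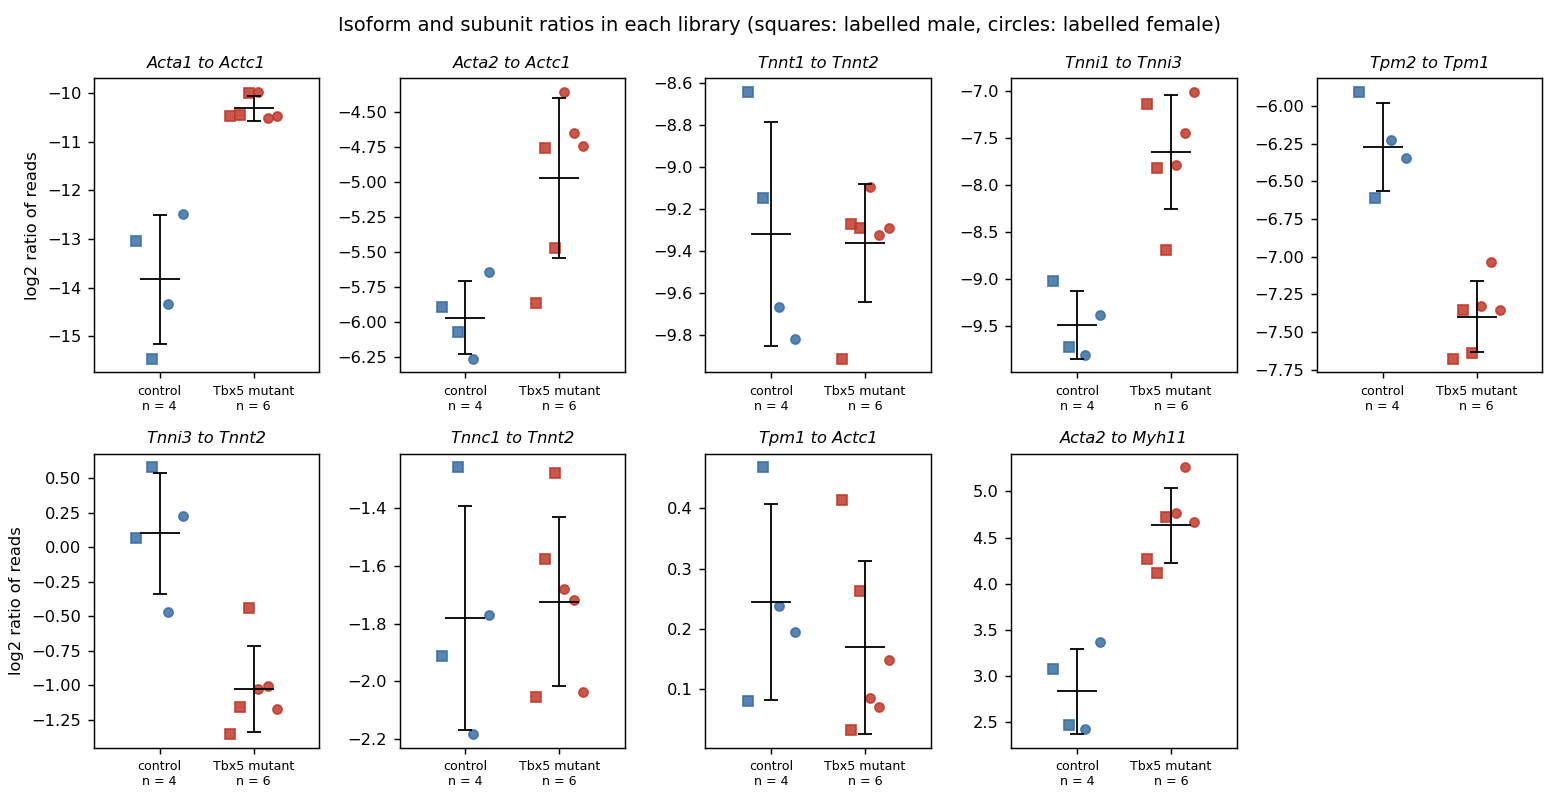
Each panel plots 1 ratio of reads between genes on a log2 scale (0.5 was added to each count), with a point per mouse, squares for mice labelled male and circles for mice labelled female, and the mean and SD of each group in black. The ratios Acta1 to Actc1, Tnni1 to Tnni3 and Acta2 to Myh11 lie higher and Tpm2 to Tpm1 lower in all 6 Tbx5 mutant mice than in all 4 control mice.

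Tnnt2, the cardiac troponin T, rose 2.17-fold. Tnnt2 (ENSMUSG00000026414.13) lies at chr1:135836354-135852260 on the forward strand. Its level was 2884, 2301, 4776 and 3366 CPM in M1, M2, F1 and F2 of the controls. The mutants ran higher, with a lowest of 6048, a median of 7135 and a highest of 8676 CPM. The controls were wide, with F1 the highest of them, and still lay below every mutant. The mean went from 3332 ± 1057 CPM (SD, n = 4) to 7229.9 ± 1023 CPM (SD, n = 6), a log2 fold change of 1.12 ± 0.20 (SE, edgeR adjusted p = 0.000872).

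Tnnt1, the slow skeletal troponin T, rose 2.12-fold from a level far below that of Tnnt2. Tnnt1 (ENSMUSG00000064179.13) lies at chr7:4504570-4516382 on the reverse strand. Its level was 7.14, 3.97, 5.80 and 3.65 CPM in M1, M2, F1 and F2 of the controls. For the mutants there was a lowest of 8.91, a median of 10.97 and a highest of 12.8 CPM. The lowest mutant, M1, was above the highest control, M1. On average it went from 5.14 ± 1.64 CPM (SD, n = 4) to 10.9 ± 1.55 CPM (SD, n = 6), a log2 fold change of 1.09 ± 0.20 (SE, edgeR adjusted p = 0.00103). The balance of Tnnt1 and Tnnt2 showed no detectable shift. The share of Tnnt1 per kilobase was 0.184% ± 0.0713 (SD, n = 4) in the controls and 0.173% ± 0.0298 (SD, n = 6) in the mutants, and the log2 ratio differed by -0.04 (exact permutation p = 0.819, adjusted p = 0.819 over the 9 ratios). That ratio was -8.64, -9.15, -9.67 and -9.82 in M1, M2, F1 and F2 of the controls and had a lowest of -9.91, a median of -9.29 and a highest of -9.09 in the mutants. Control mouse M1 was the highest and F2 the lowest of the controls, and mutant mouse M1 fell below all controls.

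Tnni3, the adult cardiac troponin I, was the gene with the smallest difference, and it did not pass the test. Tnni3 (ENSMUSG00000035458.15) lies at chr7:4518305-4524229 on the reverse strand. Its level was 3015, 3438, 3454 and 3943 CPM in M1, M2, F1 and F2 of the controls. In the mutants it showed a lowest of 3145, a median of 3395 and a highest of 4456 CPM. The groups lay over each other, and only mutant mouse M3 exceeded all controls. The mean was 3462 ± 379 CPM (SD, n = 4) and 3545 ± 468 CPM (SD, n = 6), a log2 fold change of 0.03 ± 0.13 (SE, edgeR adjusted p = 0.868), and the exact permutation p was 0.829. Tnni3 overlaps Dnaaf3 on the same strand, so that part of its reads may have been counted to neither or to the other gene.

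Tnni1, the slow skeletal troponin I that the heart makes before birth, rose 3.80-fold. Tnni1 (ENSMUSG00000026418.16) lies at chr1:135779434-135810989 on the forward strand. Its level was 5.72, 3.97, 3.76 and 5.82 CPM in M1, M2, F1 and F2 of the controls. The 6 mutants had a lowest of 10.6, a median of 17.3 and a highest of 26.3 CPM. The groups did not overlap, and the mutants were widely spread, with F3 the highest and M3 the lowest. Its mean rose from 4.82 ± 1.10 CPM (SD, n = 4) to 18.3 ± 6.00 CPM (SD, n = 6), a log2 fold change of 1.93 ± 0.25 (SE, edgeR adjusted p = 9.53e-05). The share of Tnni1 in the pair per kilobase went from 0.111% ± 0.0292 (SD, n = 4) to 0.419% ± 0.154 (SD, n = 6), so Tnni3 remained nearly all troponin I RNA in both groups. The log2 ratio of Tnni1 to Tnni3 was -9.03, -9.73, -9.81 and -9.39 in M1, M2, F1 and F2 of the controls and had a lowest of -8.69, a median of -7.62 and a highest of -7.01 in the mutants. All mutants lay above all controls, by 1.84 (exact permutation p = 0.00952, adjusted p = 0.0214 over the 9 ratios).

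Tnnc1, the troponin C shared by heart and slow skeletal muscle, rose 2.33-fold. Tnnc1 (ENSMUSG00000091898.8) lies at chr14:31208312-31211729 on the forward strand. Its level was 765, 962, 1051 and 987 CPM in M1, M2, F1 and F2 of the controls. Across the mutants it had a lowest of 1864, a median of 2049.9 and a highest of 2670.0 CPM. Every mutant was well above every control, and mutant mice M2 and M3 were the highest. The mean went from 941 ± 123 CPM (SD, n = 4) to 2189 ± 319 CPM (SD, n = 6), a log2 fold change of 1.22 ± 0.14 (SE, edgeR adjusted p = 3.61e-05). Tnnc1 overlaps Nisch on the other strand, so the same limit on telling reads apart holds for it.

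Within the troponin complex, the ratio of Tnnc1 to Tnnt2 showed no detectable shift and the ratio of Tnni3 to Tnnt2 fell. The log2 ratio of Tnnc1 to Tnnt2 was -1.91, -1.26, -2.18 and -1.77 in M1, M2, F1 and F2 of the controls and had a lowest of -2.06, a median of -1.70 and a highest of -1.28 in the mutants, which overlapped throughout (difference 0.06, exact permutation p = 0.781, adjusted p = 0.819 over the 9 ratios). The log2 ratio of Tnni3 to Tnnt2 was 0.06, 0.58, -0.47 and 0.23 in the controls in the same order and had a lowest of -1.36, a median of -1.09 and a highest of -0.44 in the mutants. The difference, mutant minus control, was -1.13 on the log2 scale (exact permutation p = 0.0190, adjusted p = 0.0286 over the 9 ratios), with 5 of 6 mutants below all controls and mutant mouse M3 within their range. Per kilobase, Tnni3 was 58.4% ± 7.31 (SD, n = 4) of Tnni3 plus Tnnt2 in the controls and 39.3% ± 5.25 (SD, n = 6) in the mutants. The troponin genes lie in pairs, Tnni1 upstream of Tnnt2 on chromosome 1 with 25364 bases between them and Tnnt1 beside Tnni3 on chromosome 7 with 1922 bases between them. The first pair rose together, Tnni1 by 1.93 and Tnnt2 by 1.12, whereas in the second Tnnt1 rose by 1.09 and Tnni3 stood at 0.0339, all as log2 fold changes.

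Tpm1, the main tropomyosin of the adult heart, rose 1.77-fold. Tpm1 (ENSMUSG00000032366.15) lies at chr9:67022590-67049406 on the reverse strand. Its level was 4441, 5145, 5734 and 5781 CPM in M1, M2, F1 and F2 of the controls. The mutant values had a lowest of 8582, a median of 9125 and a highest of 10933 CPM. The groups did not overlap, and mutant mouse M3 stood above the rest of its group. The group mean rose from 5275 ± 627 CPM (SD, n = 4) to 9333 ± 821 CPM (SD, n = 6), a log2 fold change of 0.82 ± 0.14 (SE, edgeR adjusted p = 0.000601). Tpm1 and Actc1 showed no detectable shift against each other. Their log2 ratio was 0.08, 0.47, 0.24 and 0.19 in M1, M2, F1 and F2 of the controls and had a lowest of 0.03, a median of 0.12 and a highest of 0.41 in the mutants, a difference of -0.08 (exact permutation p = 0.457, adjusted p = 0.588 over the 9 ratios). In 2 mutants the ratio was under that of the lowest control.

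Tpm2, the β-tropomyosin of slow and smooth muscle, was the only one of the 10 with a lower mean in the mutants, and it did not pass the test. Tpm2 (ENSMUSG00000028464.16) lies at chr4:43514711-43523765 on the reverse strand. Its level was 74.0, 52.6, 76.5 and 71.2 CPM in M1, M2, F1 and F2 of the controls. Mutant mice had a lowest of 41.8, a median of 56.0 and a highest of 68.0 CPM. Control mouse M2 lay within the mutants, and mutant mouse M1 was the lowest. The mean was 68.6 ± 10.9 CPM (SD, n = 4) and 55.6 ± 8.32 CPM (SD, n = 6), a log2 fold change of -0.30 ± 0.13 (SE, edgeR adjusted p = 0.0910), with an exact permutation p of 0.0857. Without control mouse M2 the log2 fold change was -0.40 with edgeR adjusted p = 0.0293, which passes the test but not the threshold on fold. Relative to Tpm1 the difference was larger than the spread. The share of Tpm2 in the pair per kilobase went from 1.71% ± 0.344 (SD, n = 4) to 0.788% ± 0.129 (SD, n = 6), and the log2 ratio of Tpm2 to Tpm1 was -5.91, -6.61, -6.23 and -6.34 in M1, M2, F1 and F2 of the controls and had a lowest of -7.68, a median of -7.35 and a highest of -7.04 in the mutants. All 6 mutants lay below all 4 controls, with a difference of -1.13 on the log2 scale (exact permutation p = 0.00952, adjusted p = 0.0214 over the 9 ratios).

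Of the 9 ratios, 6 passed an adjusted p of 0.05, 4 of them higher and 2 lower in the mutants, and 4 had groups that did not overlap. With 4 mice against 6 there are 210 splits and the smallest exact permutation p is 0.00952. On CPM, the 8 genes that rose each had that smallest p. Without control mouse M1, and likewise without control mouse M2, none of the 6 ratios passed, at exact permutation adjusted p = 0.0536 or 0.0714 with only 84 splits left, and Acta2 to Actc1 did not pass without control mouse F1 nor Tnni3 to Tnnt2 without control mouse F2. All 6 kept their direction there. With 84 splits the smallest exact permutation p is 0.0238. Without control mouse M1 or M2 the 4 ratios without overlap stood at it, which gave an exact permutation adjusted p of 0.0536. Their loss therefore does not show that they rest on either mouse.

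**Figure D3:**
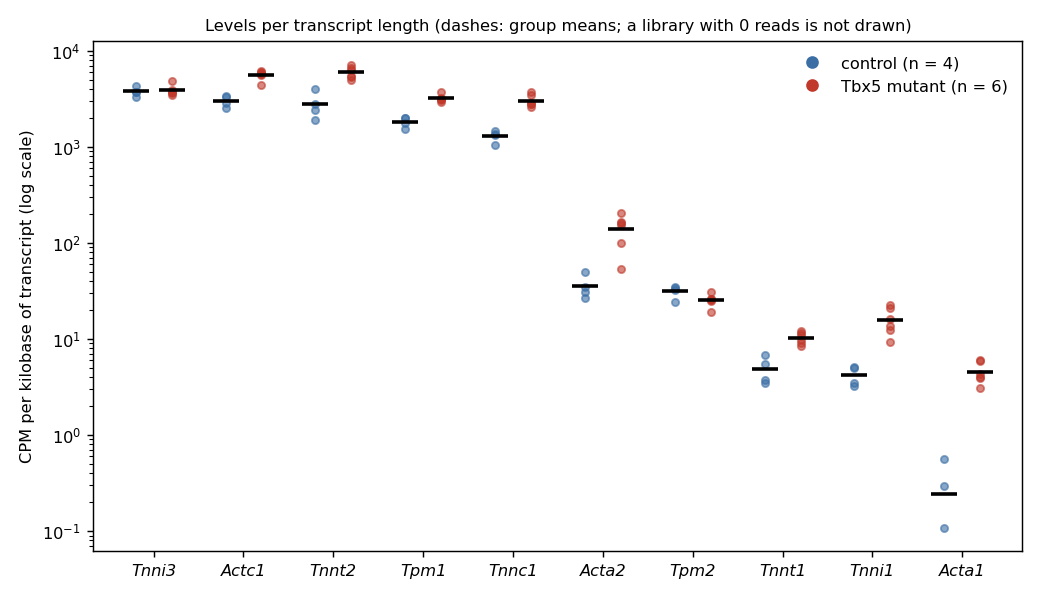
The level of each gene in CPM per kilobase of its longest coding transcript is plotted on a log scale, with a point per mouse and a dash at the mean of the 4 control and 6 Tbx5 mutant mice, in the order of the control means. Tnni3, Actc1 and Tnnt2 lead in the controls, and Acta1 is the lowest in both groups. A control mouse with 0 reads of Acta1 is not drawn.

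Per kilobase of the longest coding transcript, the control atria were led by Tnni3 at 3796 ± 416 CPM per kilobase (SD, n = 4 throughout), followed by Actc1 at 3028 ± 417, Tnnt2 at 2777 ± 881, Tpm1 at 1825 ± 217 and Tnnc1 at 1306 ± 171. Then came Acta2 at 35.6 ± 9.85 and Tpm2 at 31.5 ± 5.0, Tnnt1 at 4.86 ± 1.54 and Tnni1 at 4.19 ± 0.958, and last Acta1 at 0.242 ± 0.246. The first 4 overlapped in turn from mouse to mouse, as did Acta2 with Tpm2 and Tnnt1 with Tnni1. The steps from Tpm1 to Tnnc1, from Tnnc1 to Acta2, from Tpm2 to Tnnt1 and from Tnni1 to Acta1 did not. In the mutants Tnnt2 led at 6025 ± 853 CPM per kilobase (SD, n = 6 throughout), before Actc1 at 5656 ± 652, Tnni3 at 3887 ± 513, Tpm1 at 3229 ± 284 and Tnnc1 at 3037 ± 442. Acta2 followed at 141 ± 54.5, then Tpm2 at 25.6 ± 3.83, Tnni1 at 15.9 ± 5.22, Tnnt1 at 10.3 ± 1.46 and Acta1 at 4.56 ± 1.16. Here each of the first 4 overlapped with the next, Tnnc1 did not overlap with Acta2, Acta2 stood apart on both sides, Tpm2, Tnni1 and Tnnt1 overlapped in turn, and Acta1 stood apart. The length sets these levels: with the second longest coding transcript of Tpm1, which has 1898 in place of 2890 bases, its means would be 2779 and 4917 CPM per kilobase. With the second longest of each gene, where Actc1 has 303 in place of 1473 bases and Tnnc1 stays at 721, Actc1 would lead both groups at 14720 and 27496 CPM per kilobase. Tnni3 at 5761 in the controls and Tnnt2 at 6169 in the mutants would follow. These values show only how far the order depends on the length chosen and are no better estimate of the levels.

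The other genes of the 3 families were taken from a list. Of the 8 other actin, troponin and tropomyosin genes, 5 could be tested, 4 were called higher and none lower, with a median log2 fold change of 0.811. The largest rise was that of the cytoplasmic γ-actin Actg1 (from 2.62 ± 1.18 to 5.38 ± 2.36 CPM, log2 fold change 1.05, edgeR adjusted p = 0.0399), and it was not called with limma, with the trend on transcript length removed or without control mouse F1 or M2 or mutant mouse F2, F3 or M2 (adjusted p from 0.0574 to 0.116). The others, named after their values were seen, were the cytoplasmic β-actin Actb (from 593 ± 87.0 to 1039.8 ± 188 CPM, log2 fold change 0.81, edgeR adjusted p = 0.00111), Tpm4 (log2 fold change 0.96, edgeR adjusted p = 6.47e-05) and Tpm3 (log2 fold change 0.74, edgeR adjusted p = 0.000365). The fast skeletal troponin T gene Tnnt3 had 2.21 CPM in the controls and 2.22 CPM in the mutants and did not pass the test. Actg2, Tnnc2 and Tnni2, the enteric actin and the fast skeletal troponins C and I, had at most 14 reads in any library and were not tested.

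Genes that set the length of actin filaments, cap them or turn them over went both ways. All 26 of the list were tested, with a median log2 fold change of 0.241. Of them, 7 were called higher and 3 lower, against 8.50% and 7.16% of all genes tested. The largest fall was that of Neb, which encodes nebulin, the giant ruler protein of skeletal thin filaments (from 78.4 ± 26.2 to 25.1 ± 14.7 CPM, log2 fold change -1.63, edgeR adjusted p = 0.00286). Its cardiac relative Nebl (from 275 ± 63.8 to 139 ± 71.2 CPM, log2 fold change -0.99, edgeR adjusted p = 0.0183) and the filament-severing gelsolin Gsn (from 5675 ± 677 to 3344 ± 789 CPM, log2 fold change -0.76, edgeR adjusted p = 0.00508) fell too and are named after their values were seen. The largest rise was that of Lmod3, a leiomodin that nucleates actin filaments (from 26.5 ± 7.50 to 46.0 ± 8.51 CPM, log2 fold change 0.79, edgeR adjusted p = 0.00452). The others that rose were the depolymerizing factors Cfl1, Cfl2 and Dstn, their cofactor Wdr1, the monomer-binding Pfn1 and the twinfilin Twf2, with log2 fold changes from 0.60 to 0.78. Tmod1, the pointed-end cap of cardiac thin filaments, had a log2 fold change of -0.52 with edgeR adjusted p = 0.00494, under the threshold on fold. The count called higher fell to 3 with the trend on transcript length removed, to 2 with a replicate block as well, to 4 without mutant mouse M3 and to 5 without mutant mice M1 and M3, as changes of Cfl2, Dstn, Pfn1, Twf2 or Wdr1 came under the threshold on fold, and 3 were lower in each of these. Nebl was not called without control mouse F1 (edgeR adjusted p = 0.0689).

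Factors known to act on muscle actin and troponin promoters had a median log2 fold change of -0.174 over the 12 tested of 13. Of the 12, 1 was called higher and 3 lower, against 8.50% and 7.16% of all genes tested. The rise was that of Myocd, the myocardin that works with serum response factor (from 111 ± 11.3 to 197 ± 25.4 CPM, log2 fold change 0.83, edgeR adjusted p = 0.000127). The largest fall was that of Tead1, the factor of MCAT sites (from 213 ± 59.2 to 127 ± 26.5 CPM, log2 fold change -0.75, edgeR adjusted p = 0.00867), and Mef2a (log2 fold change -0.70, edgeR adjusted p = 0.000414) and Mef2d (log2 fold change -0.66, edgeR adjusted p = 0.000203), named after their values were seen, fell as well. With the trend on transcript length removed none of the 3 falls was called: the log2 fold change was -0.45 for Tead1 (edgeR adjusted p = 0.129), and -0.57 for Mef2a and -0.53 for Mef2d came under the threshold on fold. Srf itself was 99.6 ± 8.26 and 91.3 ± 7.08 CPM, log2 fold change -0.13, edgeR adjusted p = 0.282, and did not pass the test. Vgll2 had 0 reads in every library.

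**Figure D4:**
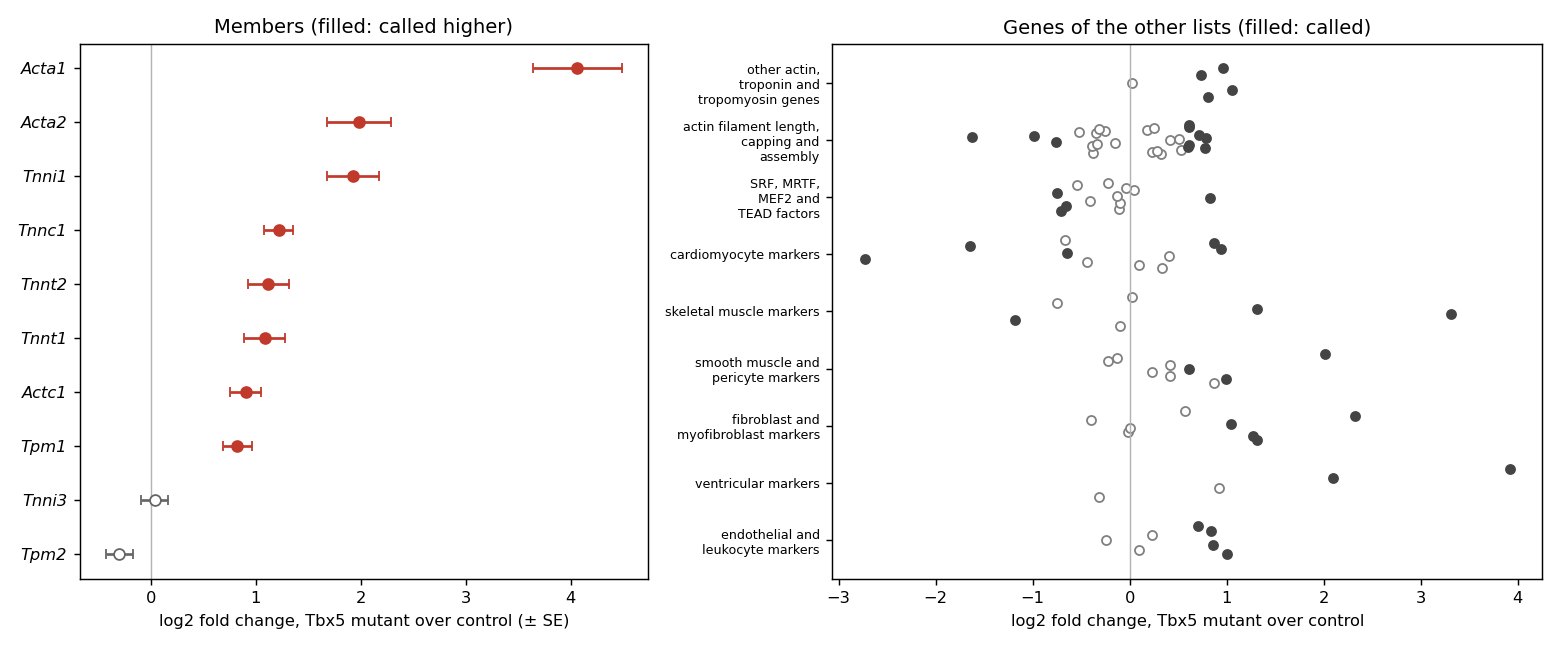
The left panel plots the log2 fold change, Tbx5 mutant over control, of the 10 genes with its standard error, filled where the gene was called higher. The right panel plots the log2 fold change of the tested genes of the other lists, filled where called. In the left panel 8 genes lie to the right of 0 and are filled, while Tnni3 and Tpm2 are open. The right panel has filled points on both sides in the lists of filament assembly, factors, cardiomyocyte and skeletal muscle genes.

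Markers of skeletal muscle were set beside Acta1, Tnnt1 and Tnni1, which skeletal muscle also makes. Of 12 markers 6 could be tested, with 2 called higher and 1 lower. Casq1, the calsequestrin of skeletal muscle, had the largest rise (from 6.47 ± 3.73 to 64.4 ± 22.8 CPM, log2 fold change 3.31, edgeR adjusted p = 1.70e-05) and Atp2a1, the calcium pump of fast muscle, the largest fall (from 5.96 ± 2.59 to 2.69 ± 0.863 CPM, log2 fold change -1.18, edgeR adjusted p = 0.0119), which was not called without control mouse F2 (edgeR adjusted p = 0.0555). The light chain gene Myl1, named after its values were seen, rose from 188 ± 34.9 to 469 ± 90.8 CPM, log2 fold change 1.32, edgeR adjusted p = 4.98e-05, and it held most of the summed level, which ran from 174 to 271 CPM in the control mice and from 459 to 731 CPM in the mutant mice. The defining myosins Myh1, Myh2 and Myh4 and the fast troponin Tnnc2 had at most 3 reads in every library, and Tnni2 had 1.57 CPM in the controls and 0.687 CPM in the mutants. Ventricular markers were 4 tested of 5, with 2 called higher and none lower and a summed level from 193 to 299 CPM in the control mice and from 790.5 to 1589 CPM in the mutant mice. The ventricular essential light chain gene Myl3 had the largest rise (from 45.4 ± 9.11 to 688 ± 109 CPM, log2 fold change 3.92, edgeR adjusted p = 6.13e-09), and the regulatory light chain gene Myl2, named after its values were seen, rose from 4.53 ± 2.14 to 19.4 ± 8.92 CPM, log2 fold change 2.10, edgeR adjusted p = 0.00156. The ventricular factor Irx4 had at most 1 read in any library, and Myh7, the slow myosin, was 183 ± 51.2 and 346 ± 325 CPM, log2 fold change 0.92, edgeR adjusted p = 0.208, and did not pass the test. Endothelial and leukocyte markers were called higher in 4 of 7 tested of 8 and lower in none. They were led by the macrophage gene Cd68 (from 4.70 ± 0.730 to 9.39 ± 2.73 CPM, log2 fold change 1.00, edgeR adjusted p = 0.00321). The others called, named after their values were seen, were the leukocyte genes Ptprc and Emr1 and the endothelial Vwf (from 1194 ± 338 to 1941 ± 318 CPM, log2 fold change 0.70, edgeR adjusted p = 0.0104). Vwf was the most abundant and came under the threshold on fold without control mouse F2, at 0.58. The endothelial Pecam1, Cdh5 and Kdr had log2 fold changes of 0.23, 0.10 and -0.24 and were not called. The summed level ran from 1609 to 2489 CPM in the control mice and from 2524 to 3358 CPM in the mutant mice. The part of these markers in the rise of the 8 genes was not tested.

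The genes whose levels deviated most like those of 4 members were searched over the 10 mice after the group means were taken away, among 9268 genes with a mean of at least 10 CPM. These are descriptions, since all values of a mouse share its library and depth. The genes named are also the highest of 9268 correlations over only 10 mice. How far the search alone gives values this high was not tested. For Acta2 they were Tagln (r = 0.94), Cmklr1 (r = 0.91) and Ank (r = 0.90), the first of them also a smooth muscle gene. For Tnni1 they were Ncam1 (r = 0.94), Tep1 (r = 0.94) and Paxip1 (r = 0.94), for Tnnt1 Mbd2 (r = 0.88), Zfp90 (r = 0.87) and Prpf6 (r = 0.86), and for Acta1, which rests on few reads, Slc27a4 (r = 0.89), D11Wsu99e (r = 0.88) and Tmem62 (r = 0.87).

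A difference of the effect between labelled sexes was not detectable in the 10 genes. In the edgeR fit with an interaction of genotype and labelled sex, 0 of the 10 passed an adjusted p of 0.05, against 0.290% of all genes tested. At an unadjusted p under 0.05 the same edgeR fit gave 2, the smallest p being that of Tnnt2 (edgeR adjusted p = 0.373), and limma with a trend gave 0 and 2. The sex labels of the control mice were then exchanged to follow Xist and Ddx3y. In that edgeR fit 0 of the 10 passed the adjusted p, against 1 of all 13084 genes tested. At an unadjusted p under 0.05 it gave 1 of the 10. Since the control labels went against Xist and Ddx3y, the fits by label cannot measure a difference of effect between the sexes. With 2 control mice per labelled sex, the design can show only large differences of this kind.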

How the data were processed

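Right atrial RNA of 10 mice was sequenced, and the authors deposited 1 table for all of them. It holds read counts per gene and library, whole numbers without normalization, per the file headers. It also holds a signal, in which the authors divided each count by a DESeq2 size factor per library, and columns of the authors' own comparison that were not used (the deposited log2 fold change with its error, the Wald score, the p-value and its adjusted form, and the linear fold ratio). The submitters' processing notes name FastQC, TopHat2 2.0.11, featureCounts, DESeq2 and the build mm10. The annotation and the strand setting of the counting are not given in the sources used here. No column of library values was left unmapped.

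Libraries held from 5703775 to 7095141 counts. Intervals and the detection limit of 3 counts cover counting error only, since the reads carry no molecular identifiers.

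The test was that of edgeR 4.0.16 under R 4.3.3 (filterByExpr, TMM scaling, quasi-likelihood test over all 10 libraries, no covariates, prior count 0.125, Benjamini-Hochberg adjustment over all 13084 genes tested). A gene was called at an adjusted p under 0.05, a fold change over 1.5 and a mean deposited signal in the controls over 1. CPM are counts scaled to the TMM library size. The standard error was derived from the F statistic, as the size of the change divided by its root. Ratios were log2 of counts with 0.5 added, and were compared, like single CPM values, by a two-sided exact permutation test (scipy 1.17.1). Lengths came from the longest coding transcript in GENCODE M21 and promoter windows from RefSeq, GRCm38.p6. The fit was tested on simulated data. The replicates are separate mice by their labels, and p-values measure the spread between them. No pair of libraries in a group agreed within sampling noise, the smallest chi-square per degree of freedom being 3.93 over 21 pairs.

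The genes and lists were chosen with earlier results of these data known. Named were the 10 genes, from each list the largest called fall and rise, the genes Tbx5, Rn45s, Xist and Ddx3y as checks, and for 4 of the 10 the 3 genes of most like deviation. Myh11 was fixed as part of a ratio. All other genes named from the lists count as named after their values were seen, also where this is not said. Alternatives were other scalings and tests (DESeq2 1.42.0, limma 3.58.1), other filters and thresholds, sex as a covariate, a replicate block, removal of the trend with transcript length and each library left out. Chosen after seeing the data were the fit without mutant mice M1 and M3 and sex with the control labels exchanged.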

Additional observations from a re-analysis of the deposited data

Results flagged for a closer look

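Of the 42 sets of values examined, each a measure in 1 group, 5 held a sample far from the rest of its group, where chance gives about 2.1. All 5 were in the mice labelled Tbx5 mutant. Actc1 was 6444 CPM in mutant mouse M1, against 8384 to 9109.8 CPM in the other 5. Tnni3 was 4456 CPM in mutant mouse M3, against 3145 to 3579 CPM in the others. Tpm1 was 10933 CPM in mutant mouse M3, against 8582 to 9291 CPM. The log2 ratio of Tnnt1 to Tnnt2 was -9.91 in mutant mouse M1, against -9.32 to -9.09. Rn45s took 38.9% of the counts of mutant mouse M3, against 0.268% to 0.582% in the others, and its part in the levels of Tnni3 and Tpm1 was not tested.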

How the results depend on the processing

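Of the 10 genes, 8 were called higher and 0 lower under every alternative but 2: 7 of 9 tested with a mean count of at least 50, which removes Acta1, and 6 with a fold change over 2. The number past the adjusted p was 7 with that mean count and otherwise 8 or 9, the ninth being Tpm2 with the trend on transcript length removed (log2 fold change -0.40, edgeR adjusted p = 0.0290) and without control mouse M2 (adjusted p = 0.0293). The fold changes of the 8 genes kept their direction and an adjusted p under 0.05 wherever they were tested, between 0.71 for Actc1 with the replicate block and the length trend removed and 4.86 for Acta1 with a library left out. The log2 fold change of Tnni3, never past the test, changed sign: -0.041 with the replicate block, -0.23 with the length trend removed, -0.26 with both, -0.041 without mutant mice M1 and M3, and from -0.043 to 0.11 with 1 library left out (without control mouse M1 or mutant mouse M3 it was below 0). Same-numbered mice did not deviate together (mean correlation -0.0071 over 4 pairs), so the replicate block joins numbers only, and with it 8 were called higher and 0 lower, while Actg1 (edgeR adjusted p = 0.0860), Atp2a1 (0.0641) and Dstn (by fold) were not called.

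With 1 library left out, the log2 ratio differences ran from 2.97 to 3.96 for Acta1 to Actc1, from 0.87 to 1.18 for Acta2 to Actc1, from 1.71 to 2.05 for Tnni1 to Tnni3, from -1.24 to -1.01 for Tpm2 to Tpm1, from -1.32 to -0.97 for Tnni3 to Tnnt2 and from 1.66 to 1.98 for Acta2 to Myh11. Each of these 6 lost its call without control mouse M1 and without control mouse M2, as did Acta2 to Actc1 without F1 and Tnni3 to Tnnt2 without F2, at exact permutation adjusted p = 0.0536 or 0.0714, where only 84 splits remain. Without M1 or M2 the 4 ratios without overlap stood at the smallest exact permutation p of 84 splits, 0.0238. Their loss follows from the fewer splits and the adjustment. The uncalled ratio of Tnnt1 to Tnnt2 ran from -0.21 to 0.18 and that of Tnnc1 to Tnnt2 from -0.076 to 0.23, changing sign, and Tnnt1 to Tnnt2 was 0.074 without mutant mice M1 and M3. The cause was not tested. Over all genes the log2 fold change correlated with transcript length (Spearman -0.33 over 11868 genes). Depth limits Acta1 most, with 10 reads in the 4 control mice.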
